A study of Mus musculus with 6 samples.

Results

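The replication-dependent histone genes are the protein-coding genes whose symbols begin with Hist1h, Hist2h, Hist3h or Hist4h in the GENCODE vM21 annotation of the mouse genome build GRCm38. They were matched by Ensembl gene identifier to the deposited counts, and 65 of the 67 annotated genes had a row among the 49315 genes counted. Hist1h2bh and Hist1h2bm had none. The 65 genes comprised 6 linker histone H1 genes, 18 H2A, 16 H2B, 12 H3 and 13 H4 genes. Of these, 52 lay in the Hist1 cluster on chromosome 13, 10 in the Hist2 cluster on chromosome 3, 2 in the Hist3 cluster on chromosome 11, and Hist4h4 lay alone on chromosome 6.

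Histones H2A, H2B, H3 and H4 form the protein core around which DNA is wrapped, and H1 binds the linker DNA between cores. The replication-dependent genes supply most of this protein while DNA is copied in S phase, so their mRNAs are abundant in dividing cells and scarce in resting ones. Most of these mRNAs end in a conserved stem-loop bound by the stem-loop binding protein SLBP in place of a poly(A) tail, and a library made by priming or selecting on poly(A) is expected to miss many of them. A few of these genes are also known to give polyadenylated transcripts in cells that are not in S phase. The labels and the methods of the study do not say whether RNA was selected by poly(A) or by removal of ribosomal RNA.

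Bulk RNA-seq was performed on 6 libraries, 1 from each of 3 hematopoietic stem and progenitor cell (HSPC) populations of WT and ING4-/- mice. The mice of the ING4-/- group were a germline model deficient in ING4, a chromatin-associated tumor suppressor of the Hbo1 complex, and the WT group were C57BL/6 mice, with controls in the study stated to be 8 to 12 weeks of age. Marrow of 8 to 10 mice per genotype was pooled and depleted of lineage-positive cells, and 1000 to 10000 cells were sorted into each sample. All cells were lineage-negative, Sca1+ and cKit+ (LSK) and CD48-. The long-term stem cells (LT-HSCs) were CD150+ without CD34, the short-term stem cells (ST-HSCs) carried both CD34 and CD150, and the multipotent progenitors that follow them (MPPs) carried CD34 without CD150. Where 3 values stand in a row for a genotype, they are those of LT-HSCs, then ST-HSCs, then MPPs. The populations stood in for replicates in the comparison of genotypes, since each genotype and population had 1 library from 1 pool, and a p-value therefore measures the spread between populations and not between animals. In bulk samples, fewer cells in S phase and less histone mRNA in each cell cannot be told apart.

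The libraries differed in depth and background along with genotype. Total counts were 7839326 to 9363442 in WT and 35596876 to 39192588 in ING4-/-. Olfactory and vomeronasal receptor genes, 1431 genes of sensory neurons taken as a measure of background, had 22.4, 22.7 and 18.1 counts for each kb of exonic sequence in WT and at most 0.0851 in ING4-/-. Ing4 itself had 247, 162 and 247 counts in WT and 0, 24 and 76 counts in ING4-/-, where the background for its length corresponded to 119, 121 and 96.2 counts in WT. Of the 5 genes of the sort gate, Kit had 5035, 3510 and 7095 counts in WT and 21967, 16974 and 33916 in ING4-/-, and Ly6a (Sca1) was present in all libraries.

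The mRNAs of the other gate genes did not all follow the surface gate. Cd48 had 50, 154 and 376 counts in WT, on a background of 26.6, 27.0 and 21.5, and 0, 1077 and 4300 in ING4-/-. In ING4-/- MPPs it stood at 107 CPM for each kb of exon, next to 112 for Kit, although all populations were sorted as CD48-. Cd34 was lowest in LT-HSCs in both genotypes but not absent there (1036 counts in WT and 9500 in ING4-/-), and Slamf1, which encodes CD150, was lowest in MPPs (336 and 299 counts). Counts of calls are therefore given without each library in turn.

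The stem-loop that sets these genes apart was searched for in the annotated transcripts, as a 6-base inverted repeat beginning GG around a 4-base loop beginning TT, on the sense strand after the last coding base. It was found in 41 of the 65 genes, always inside the exons on which reads were counted, at 25 to 62 bases from the last coding base (median 36). A total of 23 genes had the form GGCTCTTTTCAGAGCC, 7 had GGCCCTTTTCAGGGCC and 6 had GGCTCTTTTAAGAGCC. The sequences below are those of genes described in the results, 1 or more for each class, with the stem-loop in capitals, 5′ to 3′ on the coding strand of GRCm38:
Hist1h1e (chr13:23621777-23621802, minus strand): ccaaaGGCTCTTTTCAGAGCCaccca
Hist1h1c (chr13:23739507-23739532, plus strand): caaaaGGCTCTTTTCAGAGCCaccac
Hist1h2ae (chr13:23570663-23570688, minus strand): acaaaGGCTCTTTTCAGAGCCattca
Hist1h2ao (chr13:21810893-21810918, plus strand): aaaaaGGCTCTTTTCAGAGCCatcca
Hist2h2ac (chr3:96220413-96220438, minus strand): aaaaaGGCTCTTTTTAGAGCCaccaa
Hist1h2bg (chr13:23571838-23571863, plus strand): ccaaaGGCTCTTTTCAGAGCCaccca
Hist1h3e (chr13:23561898-23561923, minus strand): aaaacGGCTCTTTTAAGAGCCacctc
Hist1h4d (chr13:23581945-23581970, plus strand): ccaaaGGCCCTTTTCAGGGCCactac
Hist1h4i (chr13:22040961-22040986, minus strand): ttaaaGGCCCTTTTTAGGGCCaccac
The stem of Hist1h1c, which is also known to give polyadenylated transcripts, had the same letters as that of Hist1h1e. No match in the other 24 genes says only that these letters were not in the annotated transcript, and 12 of the gene models held coding sequence and stop codon alone. The poly(A) signal AATAAA stood in the last 60 annotated bases of 12 of the 65 genes (18.5%), against 41.1% of 58781 protein-coding transcripts.

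The coding sequences of the core histones are close to one another, which limits how reads can be assigned. Median identity between pairs of genes in a class was 96.7% for H2A, 97.4% for H2B, 97.5% for H3 and 93.9% for H4. The last 60 bases before the stop codon, coding bases 331 to 390, are shown for the 5 H2A genes that the results turn on, with bases that differ from Hist1h2ae in capitals:
Hist1h2ae: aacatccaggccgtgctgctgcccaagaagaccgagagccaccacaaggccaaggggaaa
Hist1h2ac: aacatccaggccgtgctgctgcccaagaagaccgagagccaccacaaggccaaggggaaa
Hist1h2ab: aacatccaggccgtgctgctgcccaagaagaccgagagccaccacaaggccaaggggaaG
Hist1h2ao: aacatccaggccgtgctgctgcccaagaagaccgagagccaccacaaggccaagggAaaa
Hist1h2ap: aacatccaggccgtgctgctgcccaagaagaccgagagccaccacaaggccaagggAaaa
Hist1h2ac had no difference from Hist1h2ae in this stretch, and the others had 1 each. The first 60 coding bases of the H4 genes were more varied, as shown against Hist1h4d:
Hist1h4d: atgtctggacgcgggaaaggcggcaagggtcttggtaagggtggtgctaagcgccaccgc
Hist1h4c: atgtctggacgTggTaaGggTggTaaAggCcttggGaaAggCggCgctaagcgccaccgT
Hist1h4i: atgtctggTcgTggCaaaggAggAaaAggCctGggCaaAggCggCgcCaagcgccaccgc
Hist1h4c differed at 12 and Hist1h4i at 13 of the 60 bases, and Hist1h4n had the same letters as Hist1h4i.

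The share of each gene's 50-base windows found in no other annotated gene measured how much of it could receive a read of that length uniquely. The median share was 95.7% for H1, 18.5% for H2A, 37.4% for H2B, 28.9% for H3 and 59.6% for H4. No window was unique in 5 genes of the Hist2 cluster, Hist2h2aa1, Hist2h2aa2, Hist2h3b, Hist2h3c1 and Hist2h2bb, and all 5 were at 0 counts in every library. Background for their length would have given them 85.1, 86.5 and 68.8 counts together in the WT libraries. Each of the 5 also overlapped other annotated genes over 100% of its exonic bases on at least 1 strand. A count of 0 for these genes therefore cannot be read as absence of expression, and its cause was not tested. The 17 genes with some unique windows but under 25% had 31.6%, 71.3% and 60.2% of their background in WT, whereas the 25 genes with 50% or more had 391%, 368% and 538%. Hist1h1t, the testis-type linker histone, was unique in all its windows and overlapped no other gene, and it too was at 0 in every library. The background for its length was 16.3, 16.6 and 13.2 counts in WT, so a 0 below background was not limited to genes without unique windows. A further limit is that 23 of the genes overlapped another annotated gene, 21 of them on the opposite strand, and the strand setting of the counting is not given in the sources used here.

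**Figure D1:**
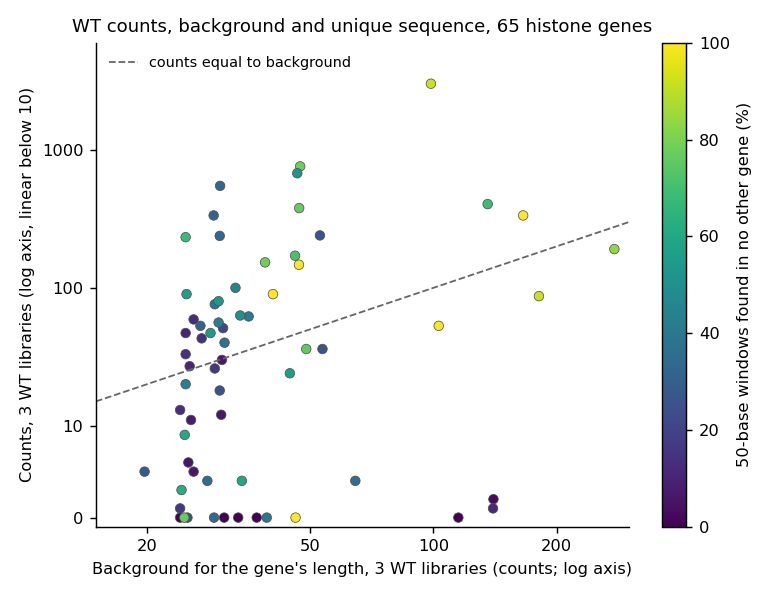
Counts summed over the 3 WT libraries (vertical axis, log scale, linear below 10) against the counts that the receptor-gene background gives for the gene's exonic length in those libraries (horizontal axis, log scale), 1 point per histone gene, coloured by the percentage of its 50-base windows found in no other gene. The dashed line marks counts equal to background, and the 5 genes without a unique window lie at 0.

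Histone gene counts made up a small share of every library. They totalled 2762, 3156 and 3347 counts in WT and 14099, 19549 and 18889 in ING4-/-. As a share of all counts this was 0.0352% (exact 95% binomial interval 0.0339 to 0.0366), 0.0392% (0.0379 to 0.0406) and 0.0357% (0.0345 to 0.0370) in WT, and 0.0396% (0.0390 to 0.0403), 0.0517% (0.0510 to 0.0524) and 0.0482% (0.0475 to 0.0489) in ING4-/-. These intervals cover counting error only, as reads without molecular identifiers are not independent molecules. The ING4-/- libraries all had larger shares than the WT libraries, with 0.0392% in WT ST-HSCs next to 0.0396% in ING4-/- LT-HSCs, whose intervals overlapped. That order did not hold over the histone genes that overlapped no other gene, with 0.0314%, 0.0309% and 0.0294% in WT and 0.0302%, 0.0329% and 0.0313% in ING4-/-, where the LT-HSC share was lower in ING4-/-. Background for the exonic length of these genes equalled 41.0%, 36.5% and 27.4% of their counts in WT and at most 0.0306% in ING4-/-.

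A few genes carried most of the signal. The 5 genes with the most counts held 72.0%, 45.5% and 62.9% of the histone gene counts in the WT libraries and 64.0%, 48.4% and 59.9% in the ING4-/- libraries. In WT, 22, 15 and 19 of the 65 genes were at 0, and in ING4-/- 28, 9 and 18 were. Thus ING4-/- LT-HSCs, at 35596876 counts, had the most genes at 0 and ING4-/- ST-HSCs the fewest.

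**Figure D2:**
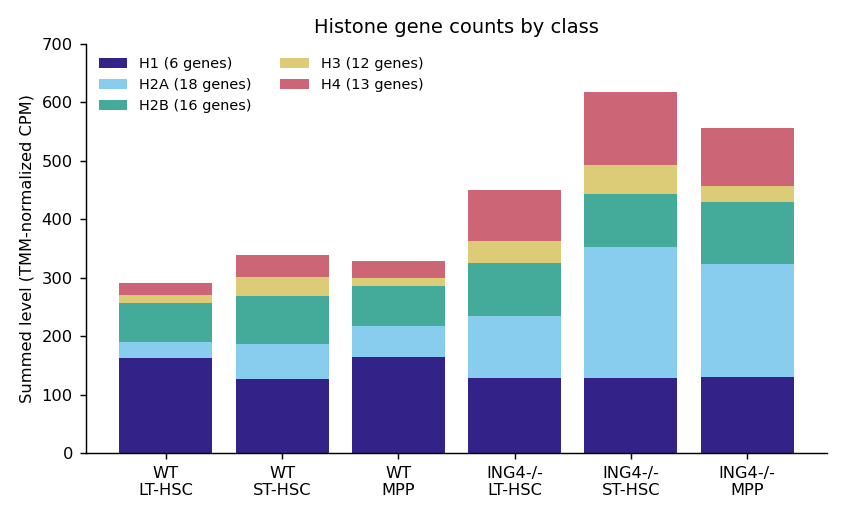
Summed level of the histone genes of each class (vertical axis, TMM-normalized CPM, counts scaled to library size) in each of the 6 libraries, as stacked bars from 0. The H1 segment lies between 127 and 165 CPM in all 6 libraries, while the H2A and H4 segments are larger in the 3 ING4-/- libraries.

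The question of the genotype comparison was how expression in HSPCs differs without ING4. Summed over the 65 genes, TMM-normalized CPM was 291, 339.8 and 328 in WT and 450.5, 618 and 557 in ING4-/-, which is 1.55, 1.82 and 1.70 times the WT level of the same population. The ratio differed across classes. The 18 H2A genes stood at 28.5, 61.2 and 52.5 CPM in WT and 107, 224 and 195 in ING4-/-, or 3.75, 3.66 and 3.71 times WT. The 13 H4 genes were at 4.38, 3.29 and 3.45 times WT. The 6 H1 genes were at 0.791, 1.02 and 0.788 times WT, with 162, 127 and 165 CPM in WT and 128, 129 and 130.03 in ING4-/-. The H2B ratios were 1.35, 1.10 and 1.55, and the H3 ratios 2.81, 1.58 and 1.92. The background was then subtracted from each gene, with negative values set to 0. In WT, 42, 26 and 34 of the 65 genes were below their background. The ratios became 6.46, 5.29 and 4.80 for H2A, 14.3, 5.28 and 4.88 for H4, and 5.61, 2.32 and 3.29 for H3. They were 1.78, 1.66 and 2.05 for H2B, 0.845, 1.11 and 0.827 for H1, and 1.94, 2.40 and 2.00 for the 65 genes together. The H4 ratio in LT-HSCs rested on 6.11 CPM left in WT. These ratios of sums have no replicate check within a population.

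In the edgeR quasi-likelihood test of the 3 ING4-/- against the 3 WT libraries, 31001 genes were tested. A call required an adjusted p (Benjamini-Hochberg) under 0.05 together with a change of more than 1 on the log2 scale. Of all genes tested, 64.6% were called, 7.98% as higher and 56.7% as lower in ING4-/-. Of the histone genes, 42 had enough counts for the test. A total of 7 were called higher (Hist1h2ao, Hist1h2ae, Hist1h2ab, Hist1h4d, Hist1h2ap, Hist1h2bc and Hist1h1e) and 2 lower (Hist1h2be and Hist1h1c). The other 33 ranged from -1.38 to 2.79 in log2 fold change. The median log2 fold change was 1.10 over the 42 histone genes, 35 of which were positive, and -6.85 over all 31001 genes. Taken within each population, the log2 ratios of ING4-/- to WT had medians of 0.03, 1.10 and 0.96 over the same 42 genes and of -4.13, -4.07 and -3.74 over all genes, so the LT-HSC pair had almost no median difference in histone genes. When every library had to reach 10 counts, 9673 genes were left, of which 18% were called (8.3% higher and 9.68% lower). There 2 histone genes were called higher (Hist1h2ae and Hist1h4d) and 1 lower (Hist1h1c), and the median was 0.66 over 14 histone genes and 0.02 over all. The 23 genes not tested had together 32, 79 and 18 counts in WT and 6, 215 and 149 in ING4-/-.

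The populations pair the libraries, and with population as a block the calls fell to 3 higher (Hist1h1e, Hist1h2ae and Hist1h4d) and 1 lower (Hist1h1c), where 6.45% and 54.4% of all genes were called. Without the ING4-/- LT-HSC library, 14 histone genes were called higher and 4 lower (all genes, 8.62% and 61.7%). Without the ING4-/- ST-HSC library the calls were 5 and 2 (7.37% and 60.3%), and the 2 lower were Hist1h2bp and Hist1h3g. Without the ING4-/- MPP library they were 5 and 0 (7.71% and 61.5%), and the 5 included Hist1h2ai, not among the 7 above. Without the WT LT-HSC library the calls were 3 and 2 (5.35% and 58.9%), and the 2 lower were Hist1h3g and Hist1h4m. Without the WT ST-HSC library they were 3 and 1 (5.24% and 56.0%), with Hist1h1c lower. Without the WT MPP library they were 4 and 1 (5.82% and 56.2%), with Hist1h3g lower. After subtraction of the background from every count, 3 were called higher (Hist1h2ao, Hist1h4d and Hist2h4) and 1 lower (Hist1h1c), where 5.6% and 38.7% of all genes were called. With both subtraction and the block, 0 were called higher and 1 lower in edgeR (all genes, 0.917% and 0.907%), with 3 of the 36 histone genes tested there at an unadjusted p under 0.05. Hist1h4d was called in 15, Hist1h2ae in 14, Hist1h2ao in 13 and Hist1h1c in 11 of 16 alternative settings, and the other 5 in 5 or 6 of them.

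All 3 ING4-/- libraries lay above all 3 WT libraries in 9 of the 42 genes (all genes, 12%), namely Hist1h1e, Hist1h2ab, Hist1h2ac, Hist1h2ae, Hist1h2ai, Hist1h2ao, Hist1h2bc, Hist1h4c and Hist1h4d. They lay below in 2 (all genes, 62.9%), namely Hist1h1c and Hist1h2be. The genes above made up 21.4% of those tested and the genes below 4.76%.

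**Figure D3:**
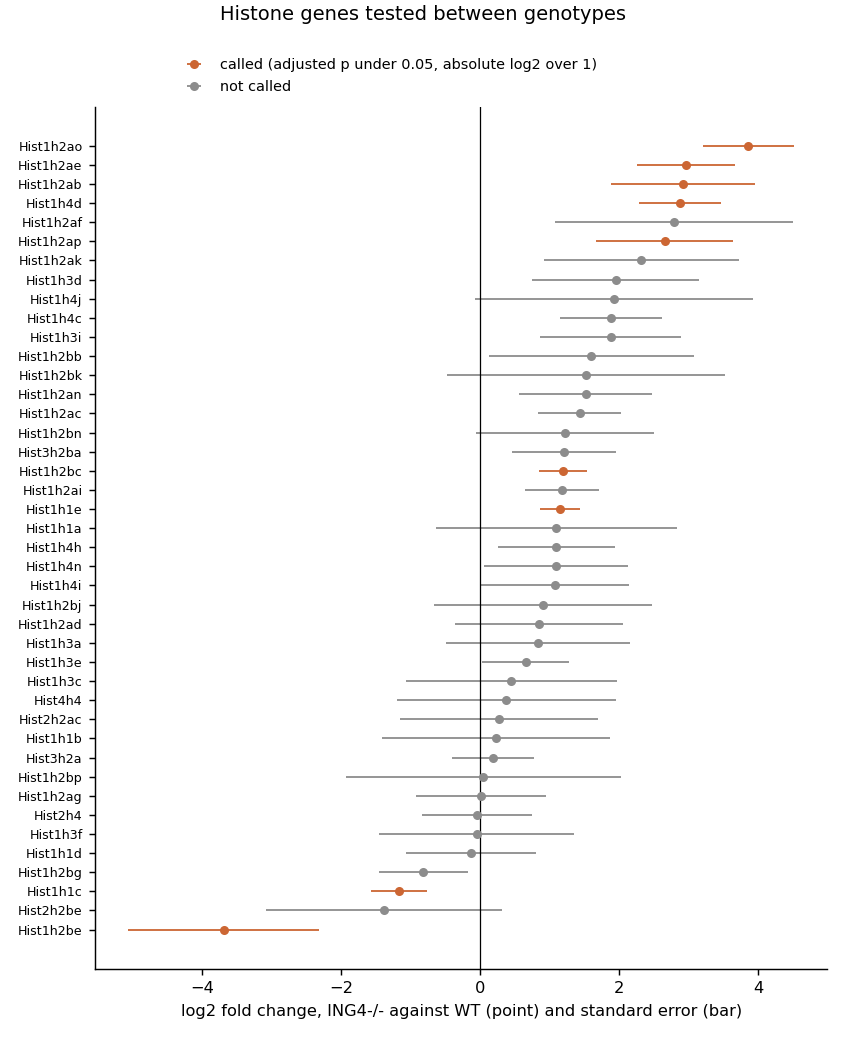
Log2 fold change of ING4-/- against WT with its standard error (horizontal axis) for the 42 histone genes tested, sorted by value. The 9 called genes are coloured, and the point of zero change is marked by the vertical line. Called genes lie at both ends, with Hist1h2ao at 3.86 and Hist1h2be at -3.69.

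Among the H1 genes, Hist1h1e and Hist1h1c moved in opposite directions. Levels below are TMM-normalized CPM per kb of exon, on which scale background was 2.36, 2.45 and 1.77 in WT. Hist1h1e (ENSMUSG00000051627, chr13:23621755-23622502, 1 exon) had 226, 261 and 273 counts in WT and 1996, 1830 and 1797 in ING4-/-. Its level was 35.1 ± 2.94 in WT and 77.8 ± 7.23 in ING4-/- (SD, n = 3 populations), and the libraries of each genotype were close together and did not overlap. The log2 fold change was 1.15 (SE 0.29, adjusted p = 0.00871), and with the block the adjusted p was 0.0448. When every library had to reach 10 counts it was 0.64 (adjusted p = 0.222), and under the size factors of DESeq2 in edgeR it was 0.79 (adjusted p = 0.0588). After background subtraction it was 0.43 (adjusted p = 0.362).

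Hist1h1c (ENSMUSG00000036181, chr13:23738808-23740367) was the histone gene with the most counts in each WT library. It had 1209, 653 and 1162 counts in WT and 1967, 821 and 1707 in ING4-/-. Its level was 81.6, 45.1 and 73.1 in WT and 40.3, 16.6 and 32.3 in ING4-/-, so it was lower in ING4-/- in each population, and in both genotypes ST-HSCs had the lowest level. Its log2 fold change was -1.16 (SE 0.40, adjusted p = 0.0373). The adjusted p was 0.241 under upper-quartile scaling and 0.118, 0.0892, 0.0697 and 0.0683 without the WT LT-HSC, WT MPP, ING4-/- ST-HSC and ING4-/- MPP library. Without this gene, the summed CPM of the other 64 was 2.37, 2.20 and 2.36 times WT.

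Hist1h1d (chr13:23555087-23555830) was the third H1 gene by level in ING4-/-. Its level was 6.37, 19.97 and 25.8 in WT and 2.45, 19.4 and 25.7 in ING4-/-. The values of ST-HSCs and MPPs nearly coincided between genotypes, and LT-HSCs were the lowest in both. The fitted log2 fold change was -0.13 (SE 0.94).

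The H2A genes held 4 of the 7 calls as higher, and all 13 tested had a positive log2 fold change. In the same fit, 13 were positive under upper-quartile scaling and 10 under the size factors of DESeq2 (lowest -0.37). Every H2A gene overlapped an opposite-strand gene over part or all of its exonic bases, so the histone genes without overlap include no H2A gene. The part of overlap in the H2A values was not tested. Hist1h2ae (ENSMUSG00000069272, chr13:23570662-23571121, minus strand) had 23, 168 and 144 counts in WT and 2189, 3158 and 3393 in ING4-/-. Its level per kb was 5.27, 39.3 and 30.7 in WT and 152, 217 and 217 in ING4-/-, which made it the histone gene with the highest mean in ING4-/-. Every ING4-/- library was above every WT library, and WT LT-HSCs were well below the other WT populations. Its log2 fold change was 2.96 (SE 0.71, adjusted p = 0.00728), and 2.26 (adjusted p = 0.0600) after background subtraction. An opposite-strand gene, Gm44394, covered 30.0% of its exonic bases. Of the Hist1h2ae windows 31.1% were unique, and its coding sequence differed from that of Hist1h2ad at 3 of 390 bases.

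Hist1h2ao (ENSMUSG00000094248, chr13:21810465-21810944) had 5, 5 and 2 counts in WT and 223, 239 and 130 in ING4-/-. Its WT counts were below the background of 10.7, 10.9 and 8.68 for its length. Only 6.497% of its windows were unique, and its coding sequence was identical to that of Hist1h2ap over 390 bases. The log2 fold change, the highest of the class, was 3.86 (SE 0.66, adjusted p = 0.00143), and the adjusted p with the block was 0.0629. After background subtraction, which set all its WT counts to 0, the value for Hist1h2ao was 9.87, and 9.82 with the block as well. Its near copy Hist1h2ap (chr13:21833026-21833507) had 3, 13 and 14 counts in WT and 40, 395 and 198 in ING4-/-. The fold change of Hist1h2ap was 2.66 in log2 (SE 0.99, adjusted p = 0.0473), and the adjusted p was 0.187 with the block and 0.0516 after background subtraction.

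Hist1h2ab (chr13:23751126-23751598) had 4, 15 and 37 counts in WT and 114, 712 and 577 in ING4-/-. LT-HSCs were lowest in both genotypes, and the level of 7.70 in ING4-/- LT-HSCs was next to the 7.67 of WT MPPs. In log2 the change was 2.92 (SE 1.03, adjusted p = 0.0396), and the adjusted p was 0.0915 with the block and 0.181 after background subtraction. Hist1h2ac (chr13:23683449-23683924), a gene also known to give polyadenylated transcripts, had a level of 8.63, 21.5 and 21.4 in WT and 27.7, 52.7 and 59.0 in ING4-/-. The genotypes did not overlap, but at a log2 fold change of 1.43 (SE 0.60) the adjusted p was 0.0720.

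**Figure D4:**
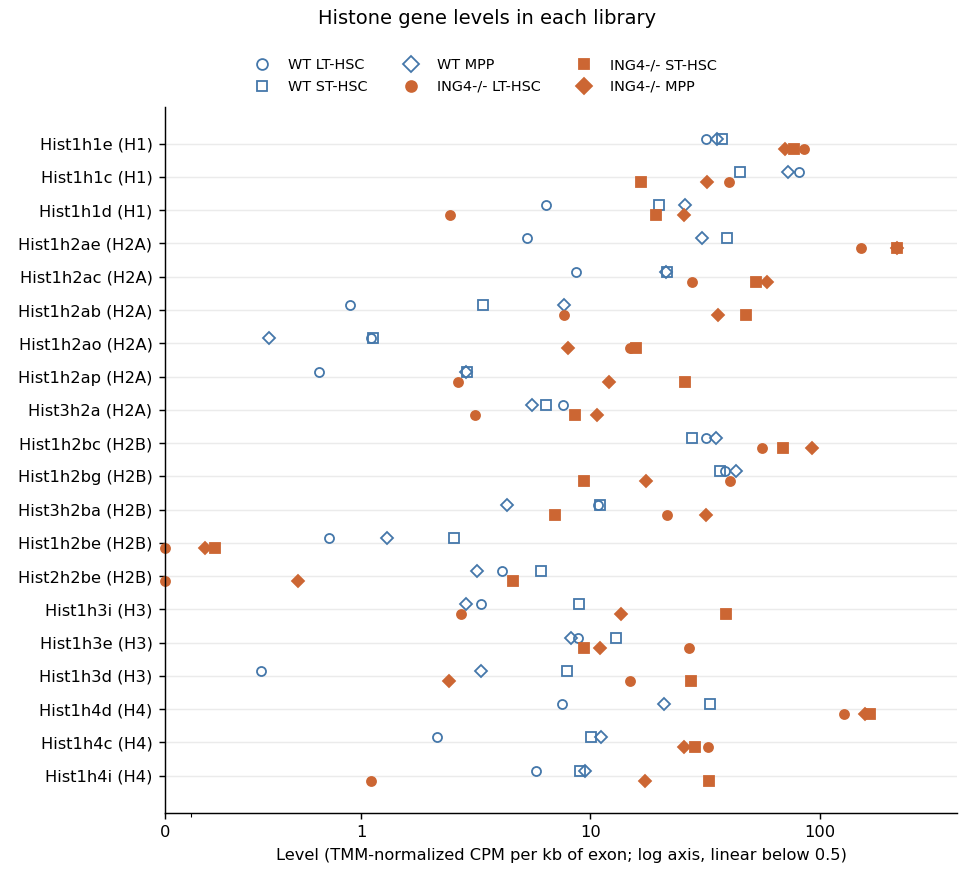
Level of each named histone gene in each of the 6 libraries (horizontal axis, TMM-normalized CPM per kb of exon, log scale that is linear below 0.5), 1 row per gene with its class. Open blue symbols are WT and filled orange symbols ING4-/-, with circles for LT-HSCs, squares for ST-HSCs and diamonds for MPPs. Hist1h2ae and Hist1h4d lie at 128 or more in all ING4-/- libraries and at 39.3 or less in all WT libraries.

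Of the H2B genes, Hist1h2bc rose and Hist1h2be fell. Hist1h2bc (ENSMUSG00000018102, chr13:23684199-23692488) is known to give polyadenylated transcripts, and no stem-loop was found in its annotated transcript. It had a level of 32.1, 27.8 and 35.2 in WT and 56.3, 69.0 and 92.7 in ING4-/-, without overlap. Its log2 fold change was 1.20 (SE 0.34, adjusted p = 0.0168), with an adjusted p of 0.0580 with the block and of 0.229 when every library had to reach 10 counts. After background subtraction the log2 fold change was 0.49 (adjusted p = 0.355).

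Hist1h2be (chr13:23583742-23621124) has a model of 4374 exonic bases, the longest of the histone genes. It had 30, 103 and 58 counts in WT and 0, 27 and 23 in ING4-/-. The background for its length was 97.9, 99.4 and 79.1 counts in WT, so in 2 of the 3 WT libraries its counts were below background. Its log2 fold change was -3.69 (SE 1.37, adjusted p = 0.0478), the adjusted p with the block was 0.109, and with the background subtracted the value turned positive (0.94, adjusted p = 0.713).

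Hist1h2bg (chr13:23571408-23571884) lies head to head with Hist1h2ae, 286 bases away. Its level was 38.9, 36.8 and 43.2 in WT and 40.8, 9.41 and 17.4 in ING4-/-. The genotypes overlapped, and its log2 fold change was -0.81 (SE 0.65, adjusted p = 0.310), whereas its neighbour Hist1h2ae rose. In ING4-/- the counts of the H2A gene and of the H2B gene were 2189 and 609 in LT-HSCs. They were 3158 and 142 in ST-HSCs, against 3393 and 282 for MPPs. There were 12 such divergent H2A and H2B pairs, with gaps of 235 to 305 bases. In the pair of Hist1h2ac and Hist1h2bc both genes had higher levels in every ING4-/- library than in any WT library. Hist3h2ba (chr11:58948920-58949533), the third H2B gene by level in ING4-/-, had 10.8, 11.0 and 4.31 in WT and 21.6, 7.004 and 31.8 in ING4-/-, and the genotypes overlapped (log2 fold change 1.21, SE 0.75).

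No H3 gene was called among the 6 tested. Hist1h3i (chr13:21782960-21783370) had levels of 3.33, 8.91 and 2.86 in WT and 2.72, 39.2 and 13.6 in ING4-/- (log2 fold change 1.88, SE 1.02). Hist1h3e (chr13:23561534-23562369) had 8.82, 12.9 and 8.22 in WT and 26.8, 9.42 and 11.0 in ING4-/- (0.66, SE 0.63). Hist1h3d (chr13:23575763-23576322) had 0.376, 7.88 and 3.33 in WT and 14.9, 27.6 and 2.42 in ING4-/- (1.95, SE 1.21). In all 3 genes the genotypes overlapped, and the population with the highest ING4-/- level was ST-HSCs in Hist1h3i and Hist1h3d and LT-HSCs in Hist1h3e.

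Of the 8 H4 genes tested, Hist1h4d rose. Hist1h4d (ENSMUSG00000061482, chr13:23581598-23581990) had 28, 121 and 84 counts in WT and 1578, 2056 and 2105 in ING4-/-. Its level was 7.503, 33.1 and 20.97 in WT and 128, 165 and 158 in ING4-/-, a wide separation with a tight ING4-/- group. With a log2 fold change of 2.87 (SE 0.59, adjusted p = 0.00347) it was called, and the adjusted p with the block was 0.0369. Hist1h4d overlapped no other gene, and 67.7% of its windows were unique.

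Hist1h4c (chr13:23698060-23698454) had levels of 2.13, 10.1 and 11.2 in WT and 32.5, 28.6 and 25.7 in ING4-/-. The genotypes were apart, and with a log2 fold change of 1.89 (SE 0.73) the adjusted p was 0.0558. Hist1h4i (chr13:22040636-22041362) had 40, 61 and 70 counts in WT and 25, 757 and 426 in ING4-/-. Its level was therefore lower in ING4-/- in LT-HSCs (1.10 against 5.79), but in ST-HSCs it was higher (32.9 against 9.03), as it was in MPPs (17.3 against 9.45), and its log2 fold change over the populations was 1.08 (SE 1.06).

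Hist1h1c, with the most counts in each WT library, was in both groups of genes with a poly(A) signal or known polyadenylated transcripts. With it included, these groups took a smaller part of the histone gene counts in ING4-/- libraries than in the WT library of the same population. The 6 genes listed as polyadenylated from the literature (Hist1h1c, Hist1h2ac, Hist1h2bc, Hist2h2be, Hist2h2aa1 and Hist3h2a) held 62.6%, 38.5% and 51.9% of the histone gene counts in WT and 27.6%, 21.4% and 30.7% in ING4-/-. Their summed level was 182, 131 and 170 CPM in WT and 124, 132 and 171 in ING4-/-. The other 59 genes summed to 109, 209 and 158 CPM in WT and 326, 486 and 386 in ING4-/-. Of the list, 5 genes were tested, with 1 called higher (Hist1h2bc) and 1 lower (Hist1h1c). Hist1h1c alone had 1209, 653 and 1162 of the 1729, 1214 and 1737 counts of the list in WT. In ING4-/- it had 1967, 821 and 1707 of 3886, 4182 and 5799. The smaller share therefore cannot be read as a trait of all 6 genes.

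Hist3h2a (chr11:58954685-58956830) had a level of 7.61, 6.42 and 5.58 in WT and 3.14, 8.58 and 10.7 in ING4-/- (log2 fold change 0.19, SE 0.59). Hist2h2be (chr3:96221119-96223738), unique in all its windows, had 102, 148 and 85 counts in WT, on a background of 58.6, 59.6 and 47.4, and 0, 380 and 47 in ING4-/- (-1.38, SE 1.70). Both overlapped between genotypes. The 12 genes with AATAAA near their annotated end held 59.2%, 39.1% and 47.4% of the histone gene counts in WT and 36.7%, 28.5% and 36.0% in ING4-/-. Their summed level was 172, 133 and 156 CPM in WT and 165, 176 and 200 in ING4-/-. Hist1h1c, 1 of the 12, had 1209, 653 and 1162 of their 1636, 1233 and 1587 counts in WT. In ING4-/- it had 1967, 821 and 1707 of 5178, 5572 and 6797.

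Other RNAs that lack a poly(A) tail had few counts in all libraries. A list of 20 such non-coding RNAs, among them Rn7sk, the RNA of the 7SK particle that restrains elongation by RNA polymerase II, and Rpph1, the RNA of RNase P, summed to 13.1, 11.6 and 12.3 CPM in WT and 17.7, 31.3 and 32.7 in ING4-/-. The background for their length was 10.9, 11.3 and 8.22 CPM in WT. In each library 8 to 13 of the 20 were at 0. Rn7sk had 5, 12 and 27 counts in WT and 297, 463 and 597 in ING4-/-, and 5 of the 10 tested were called higher and 1 lower. The chemistry of the libraries was not tested by any of these values.

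The comparison of populations asked how the histone genes follow the cycling of the sorted cells, as stem cells that are mostly resting give rise to dividing progenitors. No gene was called between populations with genotype as a term (0% of 36170 genes for ST-HSCs against LT-HSCs, 0% for MPPs against LT-HSCs and 0% for MPPs against ST-HSCs), and so none of the 48 histone genes tested. At an unadjusted p under 0.05 in edgeR there were 624, 564 and 183 genes, of which 4, 2 and 1 were histone genes. DESeq2 called 231, 360 and 0 genes, with Hist2h2ac higher in ST-HSCs than in LT-HSCs (log2 fold change 4.83, SE 1.39, adjusted p = 0.0484) and Hist1h4j lower in MPPs than in LT-HSCs (-9.42, SE 2.05, adjusted p = 0.00592). Hist2h2ac had 7, 49 and 44 counts in WT and 3, 341 and 55 in ING4-/-. Hist1h4j had 27, 9 and 0 in WT and 371, 86 and 0 in ING4-/-.

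ST-HSCs had the higher level than LT-HSCs in both genotypes in 30 of the 48 histone genes (62.5%), against 14.1% of all genes. MPPs were above LT-HSCs in both genotypes in 19 (39.6%), against 16.1%, and ST-HSCs were above MPPs in 25 (52.1%), against 10.4%. LT-HSCs were above ST-HSCs in both genotypes in 4 (8.33%), against 10.6%. A gene at 0 in both populations of a genotype can have neither order. Only 14680, 15466 and 16188 genes had any count in the ING4-/- libraries, which keeps the shares over all 36170 genes tested low. The median log2 ratio of ST-HSCs to LT-HSCs was 1.47 in WT and 1.80 in ING4-/- over the histone genes and 0.08 and 0 over all genes. For MPPs to LT-HSCs the medians were 0.21 in WT and 1.86 in ING4-/-. With the background subtracted, 25, 15 and 19 genes showed these patterns, against 11.1%, 15.5% and 6.39% of all genes. Restricted to the 14 histone genes that reached 10 counts in every library, ST-HSCs were above LT-HSCs in 6, where 30.4% of the 9673 genes were. MPPs were above LT-HSCs in 6 (all genes, 35.4%) and ST-HSCs above MPPs in 3 (all genes, 19.7%). In this set the histone genes lay closer to all genes.

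By class, ST-HSCs were above LT-HSCs in both genotypes in 11 of 14 H2A, 6 of 8 H3, 5 of 10 H2B, 5 of 11 H4 and 3 of 5 H1 genes. The opposite order held in both genotypes for Hist1h1c, Hist1h2bg, Hist1h2bb and Hist1h4j. Hist1h2bb had 18, 15 and 14 counts in WT and 425, 2 and 42 in ING4-/-. The genes in this paragraph and the next that were not named by rule were chosen after their values were seen.

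**Figure D5:**
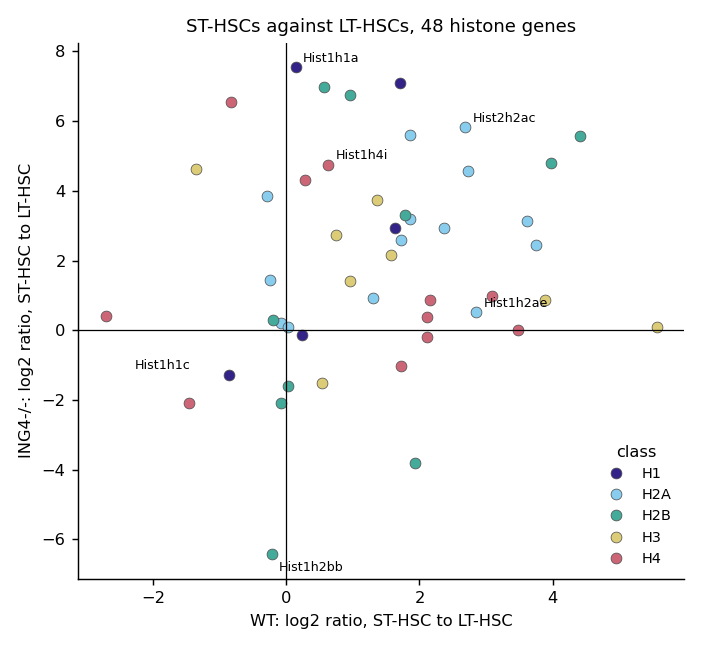
Log2 ratio of ST-HSCs to LT-HSCs in WT (horizontal axis) and in ING4-/- (vertical axis) for the 48 histone genes with enough counts, 1 point per gene, coloured by class. The 30 genes in the upper right quadrant had the higher level in ST-HSCs in both genotypes, and Hist1h1c lies in the lower left quadrant.

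The ING4-/- LT-HSC library had few or no counts for several genes that were present in the other ING4-/- libraries. Hist1h1a had 36, 39 and 15 counts in WT and 0, 562 and 86 in ING4-/-. Hist1h1b had 26, 85 and 36 in WT and 0, 410 and 172 in ING4-/-. Both are linker histone genes, unique in all their windows. A count of 0 in this library allows up to 3 counts, or 0.0843 CPM of its total. Other genes had high counts there, such as Hist1h2ae with 2189 and Hist1h4d with 1578, so that log2 ratios of ST-HSCs to LT-HSCs in ING4-/- were 7.55 for Hist1h1a, 7.10 for Hist1h1b, 0.51 for Hist1h2ae and 0.37 for Hist1h4d. In WT the same ratios were 0.14, 1.71, 2.85 and 2.11.

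Genes that act in S phase gave a readout of cycling beside the histone genes. A list of 28 S-phase genes, with the replicative helicase subunits, the clamp Pcna and enzymes of nucleotide synthesis, summed to 2000, 3421 and 3053 CPM in WT, and to 2775, 8128 and 6018 in ING4-/-. This list was highest in ST-HSCs and lowest in LT-HSCs in each genotype, before and after subtraction of the background. The summed histone genes had the same order in ING4-/-, but in WT their highest population depended on the background, since after its subtraction they stood at 232, 258 and 278 CPM, with MPPs above ST-HSCs. ST-HSCs were at 1.71 times LT-HSCs in WT and 2.93 times in ING4-/- for the S-phase list, and at 1.17 and 1.37 times for the histone genes, or 1.65 and 1.53 times without Hist1h1c. With the background subtracted, the WT values were 1.82 for the S-phase list and 1.11 for the histone genes. In both genotypes ST-HSCs were above LT-HSCs in 23 of the 28 S-phase genes and MPPs above LT-HSCs in 20. Between genotypes 6 of the 28 were called higher and 0 lower (edgeR, 27 of 28 positive). Of all genes tested, 7.98% were called higher and 56.7% lower, which also stand beside the calls of the lists that follow. These are mRNA levels, and in the study a larger part of ING4-/- than of WT MPPs was in G0 by Ki-67 and DAPI staining. Whether cycling differed was not tested here. Mcm6, a helicase subunit, had 2129, 4174 and 4942 counts in WT and 16175, 35267 and 31888 in ING4-/- (log2 fold change 1.15, SE 0.38, adjusted p = 0.0308).

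The genes that process histone mRNA were less uniform. Of 16 listed, 5 were called higher and 0 lower in ING4-/-. Slbp, which binds the stem-loop, had 996, 1300 and 1202 counts in WT and 1878, 12979 and 6701 in ING4-/- (log2 fold change 0.88, SE 0.61), so its level per kb was 17.3, 23.0 and 19.4 in WT and 9.88, 67.6 and 32.5 in ING4-/-. It was thus below WT in LT-HSCs and above it in the other populations, and it was not called. Npat, the coactivator of histone gene transcription, had levels of 5.71, 8.20 and 7.62 in WT and 6.97, 8.31 and 5.10 in ING4-/- (-0.08, SE 0.33). Eri1, an exonuclease that acts on the stem-loop end, rose (1.56, SE 0.23, adjusted p = 0.000774), with 751, 758 and 701 counts in WT and 5727, 8774 and 7288 in ING4-/-. Of 13 histone chaperones 3 were called higher and 1 lower.

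Replacement histones, whose polyadenylated mRNAs are made outside S phase as well, were far more abundant than the replication-dependent genes. The 11 listed summed to 2886, 3243 and 3716 CPM in WT and 4377, 6854 and 6429 in ING4-/-, and 5 were called higher and 0 lower. H3f3b had a level per kb of 655, 589.8 and 729 in WT and 614, 641 and 672 in ING4-/-, with overlap and a log2 fold change of -0.04 (SE 0.12). H3f3a, which encodes the same protein, had 58.2, 66.5 and 69.5 in WT and 209, 254 and 220.5 in ING4-/- (1.82, SE 0.16, adjusted p = 0.000657). H2afz had 107, 208 and 142 in WT and 313, 967 and 634 in ING4-/- (2.07, SE 0.44, adjusted p = 0.00425). H2afx, which marks DNA breaks when phosphorylated, had 56.6, 110.0 and 67.7 in WT and 62.9, 304 and 158 in ING4-/- (1.16, SE 0.56), and it was highest in ST-HSCs in both genotypes.

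Markers of other cells of the marrow moved between genotypes as well. Of 10 erythroid markers 4 were called higher and 2 lower, of 9 granulocyte markers tested 2 and 1, of 8 B cell markers 1 and 6, and of 6 T and NK cell markers tested 0 and 4. The summed level was 53.4 to 80.8 CPM in WT and 108 to 230 in ING4-/- for the erythroid list, and 101.4 to 329 and 368 to 663 for the granulocyte list. It was 107 to 135 and 66.6 to 125 CPM for the B cell list and 79.9 to 151 and 61.5 to 295 for the T and NK cell list. The background for the length of these lists was 37.1 to 51.2 CPM in WT for the erythroid, 28.9 to 39.9 for the granulocyte, 60.4 to 83.3 for the B cell and 32.4 to 44.7 for the T and NK cell list. In each ING4-/- library 6 of the 8 B cell markers were at 0, including Ms4a1 and Ebf1. Of the markers of HSPC identity 4 of 10 were called higher and 0 lower, and of the gate markers 1 of 5 (Ly6a) and 0. The part of these cells in the histone gene values was not tested.

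Promoter sequence was examined because calls as higher were made in H2A, H2B, H4 and H1 genes of 1 cluster. RefSeq promoters on GRCm38.p6, from 250 bases before to 50 bases after the start of the gene, were found for 59 of the 65 genes, and 3 motifs were searched on both strands. CCAAT stood in 50 of 59 promoters (84.7%) against 37.4% of 32851 promoters of all genes. It was in every H1, H2A, H2B and H3 promoter matched and in 3 of 12 H4 promoters. TATAAA stood in 35 of 59 (59.3%) against 13.6%. The octamer ATTTGCAT stood in 12 of 59 (20.3%) against 1.74%, in 7 of 17 H2A and 5 of 14 H2B promoters and in none of the others. The 150 bases before the RefSeq start are shown for the H2A and the H4 gene with the highest level in ING4-/-, with the motifs or their reverse complements in capitals:
Hist1h2ae (chr13:23571221-23571370, minus strand): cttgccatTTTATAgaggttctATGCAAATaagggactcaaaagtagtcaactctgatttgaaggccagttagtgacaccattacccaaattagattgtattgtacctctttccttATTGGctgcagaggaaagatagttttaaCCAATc
Hist1h4d (chr13:23581418-23581567, plus strand): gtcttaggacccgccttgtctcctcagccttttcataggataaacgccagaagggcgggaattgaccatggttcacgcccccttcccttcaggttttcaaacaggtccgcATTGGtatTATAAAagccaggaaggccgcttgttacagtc
The RefSeq start lay 99 bases upstream of the GENCODE start given above for Hist1h2ae, and 30 bases upstream of it for Hist1h4d, so the bases between the 2 starts are not in the windows shown. The Hist1h2ae window lies between this gene and the divergent Hist1h2bg. A match is a description of the letters and not a binding site.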

How the data were processed

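Bulk RNA-seq had been done on sorted LT-HSCs, ST-HSCs and MPPs of WT and ING4-/- mice, with 1 library for each genotype and population. The values that the authors deposited are whole-number read counts per gene and library, not normalized. A sequencing company made the libraries and the first tables for them, the submitters' processing notes name the build mm10, and the aligner, counter, read length, strand setting and selection of RNA are not given in the sources used here. All per-sample columns were used.

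Symbols, biotypes and exons came from GENCODE vM21 (GRCm38), in which 49056 of 49315 identifiers were found, and 45 of the 65 histone genes had the same ends in both. Identity, unique windows and stem-loops were computed from its transcripts in Python 3.11.15 with pandas 2.3.3, and promoters were from RefSeq (GRCm38.p6). The histone genes, the gene lists and the rules were chosen with earlier results of these data known.

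The quasi-likelihood F test of edgeR 4.0.16, run in R 4.3.3 after filterByExpr and TMM scaling, was used on the counts, with Benjamini-Hochberg adjustment over all genes, genotype as the only term between genotypes, and population with a genotype term between populations. The study compared the 3 populations of a genotype together in the same way. The SE was taken from the log2 fold change over the root of F. Log2 ratios within a genotype or population used TMM-normalized CPM with a prior count of 2. Across 9673 genes, the deviations of the WT and the ING4-/- library of a population from the means of their genotypes were correlated (r = 0.143, 0.110 and 0.121 for LT-HSCs, ST-HSCs and MPPs), so populations pair the libraries, and the fit with population as a replicate block is given where it changes a call.

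The genes named were the 3 with the highest mean level in ING4-/- in each class, the 5 highest and 5 lowest among called genes, the 6 genes listed as polyadenylated, the 3 highest in WT, those called between populations, and for the other lists Slbp, Npat, H2afz, H3f3a, H3f3b and H2afx with some of the genes of most counts. Alternatives were RLE and upper-quartile factors, DESeq2 1.42.0, no filter or at least 10 counts in every library, protein-coding genes only, thinning to equal depth, background subtraction, the block, and each library left out. Background subtraction with the block, the summed levels after subtraction, and the counts of genes higher in both genotypes under 2 of these settings, were added after seeing the data. Subtraction set counts below background to 0. The fits were tested on simulated counts with 200 changed genes. At a count of 0, up to 3 counts are allowed, or 0.320 to 0.383 CPM in WT and 0.0765 to 0.0843 CPM in ING4-/-. Cytometry and transplantation data were not analysed here.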

Additional observations from a re-analysis of the deposited data

Results flagged for a closer look

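Hist1h4i was noted because its log2 ratio of ING4-/- to WT differed in sign between populations, at -2.27 in LT-HSCs against 1.85 in ST-HSCs, with 0.86 in MPPs. With 1 library per genotype and population this difference was not tested.

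Histone H2A genes annotated as pseudogenes were outside the comparisons but had counts in ING4-/- above those in WT. Hist1h2al had 319, 110 and 142 counts in ING4-/- (LT-HSCs, ST-HSCs, MPPs) against 0, 1 and 0 in WT, where the background for its 378 exonic bases was 8.46, 8.59 and 6.84 counts. Hist1h2aj had 2, 25 and 2 counts in ING4-/- and 0 in every WT library, on a background of 7.88, 8.00 and 6.37 counts. The values of 2 are within the 3 counts that a count of 0 allows. Whether reads of near-identical H2A genes were assigned to them was not tested.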

How the results depend on the processing

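The number of histone genes called higher, 7, became 2 with at least 10 counts in every library, 3 after background subtraction (Hist2h4, not among the 7, and 2 of the 7), 0 after background subtraction with the block, 3 under RLE factors, 3 among protein-coding genes only, 3 with population as a replicate block, and 3 to 14 when a library was left out, with 14 without the ING4-/- LT-HSC library. The number called lower, 2, became 1 with at least 10 counts, 1 after subtraction, 1 after subtraction with the block, and 4 without a filter. It was 1 among protein-coding genes, 1 with the replicate block, 0 under upper-quartile factors, and 0 to 4 when a library was left out. Neither of the 2 was kept without the WT MPP library (Hist1h3g called), the WT LT-HSC library (Hist1h3g and Hist1h4m) or the ING4-/- ST-HSC library (Hist1h2bp and Hist1h3g). All genes called fell from 20041 to 1739 with at least 10 counts (9673 tested), 8756 after subtraction, 360 after subtraction with the block and 8585 among protein-coding genes. The median log2 fold change of the histone genes was 1.71 with upper-quartile factors, against 1.10. That scaling moved the median of all genes from -6.85 to -6.35, and RLE factors moved it to -7.17. The summed ratios of ING4-/- to WT moved to 1.94, 2.40 and 2.00 (LT-HSCs, ST-HSCs, MPPs) after subtraction. Hist1h2be reversed to 0.94 after subtraction and 1.82 after subtraction with the block. The cause was not tested where the number of genes or libraries did not itself change.

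DESeq2 called 1 histone gene in MPPs against LT-HSCs and 1 in ST-HSCs against LT-HSCs. With at least 10 counts in every library, 6, 6 and 3 of 14 genes had ST-HSCs above LT-HSCs, MPPs above LT-HSCs and ST-HSCs above MPPs in both genotypes. Shares of counts moved outside their counting intervals with protein-coding counts as the denominator, to 0.0393%, 0.0439% and 0.0391% in the WT libraries (in the order LT-HSCs, ST-HSCs, MPPs) and 0.0407%, 0.0530% and 0.0496% in ING4-/-. They were 0.0314%, 0.0309% and 0.0294% in WT and 0.0302%, 0.0329% and 0.0313% in ING4-/- for the genes without overlap, and 0.0375% and 0.0372% in WT LT-HSCs and MPPs after subtraction. Over genes without overlap the genotypes therefore overlapped in share.

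Depth limits what a count of 0 shows, since the largest WT total was 9363442 counts. No value here separates genotype from depth, background or library preparation, which differ between the same libraries. Counts of near-identical and overlapping genes depend on how reads were assigned, and 1 pool per genotype gives no estimate of spread between animals.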
